A study of Mus musculus with 9 samples.

Results

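The potassium channel genes described here are the genes whose mouse symbol starts with Kcn, measured in cultured cells of the embryonic cortex. They were taken as every probe set of the array whose single gene symbol starts with these letters. The 97 such probe sets stood for 90 of the 22180 genes with a named probe set, and the probe set with the highest mean over the arrays stood for each gene. Of the 90 genes, 65 exceeded the array median in 3 or more arrays and were tested, beside 13012 tested genes in all. The other 25 fell below this filter on low values and are described separately. Levels are log2 values per probe set, so a difference of 1 is 2-fold. Levels of different probe sets have no common scale and are not set against each other.

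Potassium channels let potassium ions leave or enter the cell and so set the resting potential, end the action potential and control how often a neuron fires. Voltage-gated channels open on depolarization, calcium-activated channels open when calcium rises, inward rectifiers and two-pore channels work near rest, and auxiliary subunits tune the pore-forming ones. In the cortex, neurons gain voltage-gated and G-protein-gated potassium currents as they mature, while dividing precursors fire no trains of action potentials.

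RNA came from wild-type CD1 mice and was measured on 9 arrays, 3 for each of 3 cultures. Neurons were cortical cells of embryonic day 16 with 5 days in culture in total; the label on growth gives 4 days for the neurons kept alone and the label on treatment 5 in total, and the total is used. Precursors were cortical cells of embryonic day 13 with 1 day in culture. In the co-culture, precursors of embryonic day 13 were added to embryonic day 16 neurons that had been kept for 4 days, and both stayed together for 1 day. Neurons and precursors therefore differ in cell type, embryonic day and days in culture, which cannot be told apart here. The labels number the arrays of each culture as biological replicates 1 to 3, and the p-values measure the spread between them. The co-culture RNA holds both cell types at once. A level there cannot be assigned to either type, and in any of the cultures fewer cells of a type and less RNA per cell cannot be told apart.

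The labels were set against marker genes, as the log2 of the markers' summed linear levels. Such a sum mostly follows the brightest probe sets of its list, and is read between arrays only. For 9 cortical neuron markers the sum lay between 14.17 and 14.22 in the neuron arrays, between 13.56 and 13.66 in precursors and between 13.79 and 13.84 in the co-culture. All 9 lay above the array median in every precursor array too, and 3 of them, Tbr1, Bcl11b and Slc17a6, were lower in neurons than in precursors. For 11 precursor markers the sum was 13.27 to 13.49 in neurons, 14.34 to 14.42 in precursors and 14.29 to 14.34 in the co-culture. Of 7 astrocyte markers 4 were tested, with summed levels over the list of 10.3 to 10.48 in neurons and 11.34 to 11.43 in precursors. Gja1 and Aldoc were lower in neurons, with differences of -1.18 and -1.78, while Aldh1l1 and Slc1a2 were higher, by 0.33 and 0.22. Microglia markers, with 7 of 11 tested, summed to 10.23 to 10.39 in neurons and 10.46 to 10.61 in precursors, and vascular markers, with 7 of 8 tested, to 9.65 to 9.72 and 10.13 to 10.24. Of the tested microglia markers 1 was higher and 2 lower in neurons, and of the vascular markers 0 and 6. Interneuron markers summed to 12.89 to 12.99 in neurons and 12.06 to 12.55 in precursors. Sst, Lhx6 and Gad1 were higher in neurons, by 1.40, 0.72 and 0.71, and Dlx2 and Gad2 lower. Oligodendrocyte lineage markers summed to 9.63 to 9.75 in neurons and 9.57 to 9.76 in precursors. The part of these cell types in the differences below was not tested.

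The RefSeq promoter table (GRCm38.p6) held 95 windows for 70 of the 90 potassium channel genes. The 4 windows below, each the 250 bases before the start of the gene, belong to 3 genes with large rises in neurons and to the gene with the largest fall among those tested, taken from genes with a single window. Kcnk9, with the largest rise, is not among them, and Kcnj3 and Kcnq5 rose by more than Kcnd2. The capitals mark the GC box, GGGCGG on either strand, a letter match only. Kcna4, an A-type voltage-gated channel, has the window chr2:107290339-107290588, with 1 GC box. Kcnj2, a strong inward rectifier, has chr11:111065914-111066163, with 2. Kcnd2, the A-type channel of dendrites, has chr6:21215096-21215345, with 1, and Kcnh8, a voltage-gated channel of the ELK type, has chr17:52602459-52602708, with 1. All 4 lie on the plus strand.
Kcna4: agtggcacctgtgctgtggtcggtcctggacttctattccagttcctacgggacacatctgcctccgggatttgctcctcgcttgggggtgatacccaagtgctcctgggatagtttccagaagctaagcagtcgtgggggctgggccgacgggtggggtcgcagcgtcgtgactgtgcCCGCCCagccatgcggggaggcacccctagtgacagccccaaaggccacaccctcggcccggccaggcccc
Kcnj2: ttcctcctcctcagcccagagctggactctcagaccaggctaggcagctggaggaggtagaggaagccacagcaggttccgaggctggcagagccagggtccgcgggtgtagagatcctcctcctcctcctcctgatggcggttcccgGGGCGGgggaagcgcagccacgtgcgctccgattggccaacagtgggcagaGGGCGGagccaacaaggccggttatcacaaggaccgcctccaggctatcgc
Kcnd2: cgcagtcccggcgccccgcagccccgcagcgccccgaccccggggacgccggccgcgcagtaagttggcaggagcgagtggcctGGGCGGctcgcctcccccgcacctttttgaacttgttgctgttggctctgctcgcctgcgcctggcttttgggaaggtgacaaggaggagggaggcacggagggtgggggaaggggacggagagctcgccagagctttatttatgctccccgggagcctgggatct
Kcnh8: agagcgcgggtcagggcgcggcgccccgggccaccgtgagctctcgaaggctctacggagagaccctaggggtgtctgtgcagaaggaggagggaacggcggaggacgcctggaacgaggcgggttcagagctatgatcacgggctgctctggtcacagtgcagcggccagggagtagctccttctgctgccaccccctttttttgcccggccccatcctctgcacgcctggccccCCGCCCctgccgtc
The 4 windows are rich in C and G whichever way the gene moved, with 65.2% (Kcna4), 65.6% (Kcnj2), 68.8% (Kcnd2) and 68.4% (Kcnh8) of bases being G or C. They hold 14, 14, 22 and 20 CG pairs in that order, against a median of 6 over all 32851 windows of the table and of 7 over the 95 windows of potassium channel genes. The GC box was found in 44.2% of the potassium channel windows and in 32.7% of all windows. It was in 44% of the 50 windows of genes higher in neurons and in 72.2% of the 18 windows of the other tested potassium channel genes. The TATA box, TATAAA on either strand, was in 2.11% of the potassium channel windows and in 12.4% of all windows. The left part of the RE1 element, CAGCACC, was in 7.37% and 5.73%, and the right part, GGACAG, in 24.2% and 18.7%. Both parts, 2 bases apart, were in 0 of the 95 windows and in 0.0335% of all, and the cyclic AMP response element, TGACGTCA, was in 0 of 95 and in 1.55% of all. Several windows can belong to 1 gene, so these shares are descriptions.

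The first comparison asks which potassium channel genes neurons and precursors hold at different levels. Most were higher in neurons. Of the 65 tested genes, 44 were higher and 5 lower in neurons (limma, adjusted p under 0.05), where 28% of all tested genes were higher and 35.2% lower. At least 2-fold higher were 15, against 5.49% of all tested genes, and 0 were at least 2-fold lower, against 4.8%. The largest differences were those of the leak channel gene Kcnk9, at 7.47-fold, Kcna4 at 6.57-fold and Kcnj2 at 5.60-fold. A second Kcna4 probe set ran the other way, as described below. The 3 neuron arrays lay above the 3 precursor arrays for 45 of the 65 genes and below them for 5, against 29.5% and 36.9% of all tested genes. The median difference was 0.42 over the 65 genes and -0.02 over all tested genes on the log2 scale. The filter favours genes that are high somewhere: Kcnc2 and Kcng3 passed it through neuron arrays alone, and 7 genes passed it with no precursor array above the median. With no filter, 45 of the 90 genes were higher and 5 lower, against 17.7% and 20.2% of all genes with a named probe set, with a median of 0.22 against 0.01.

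**Figure D1:**
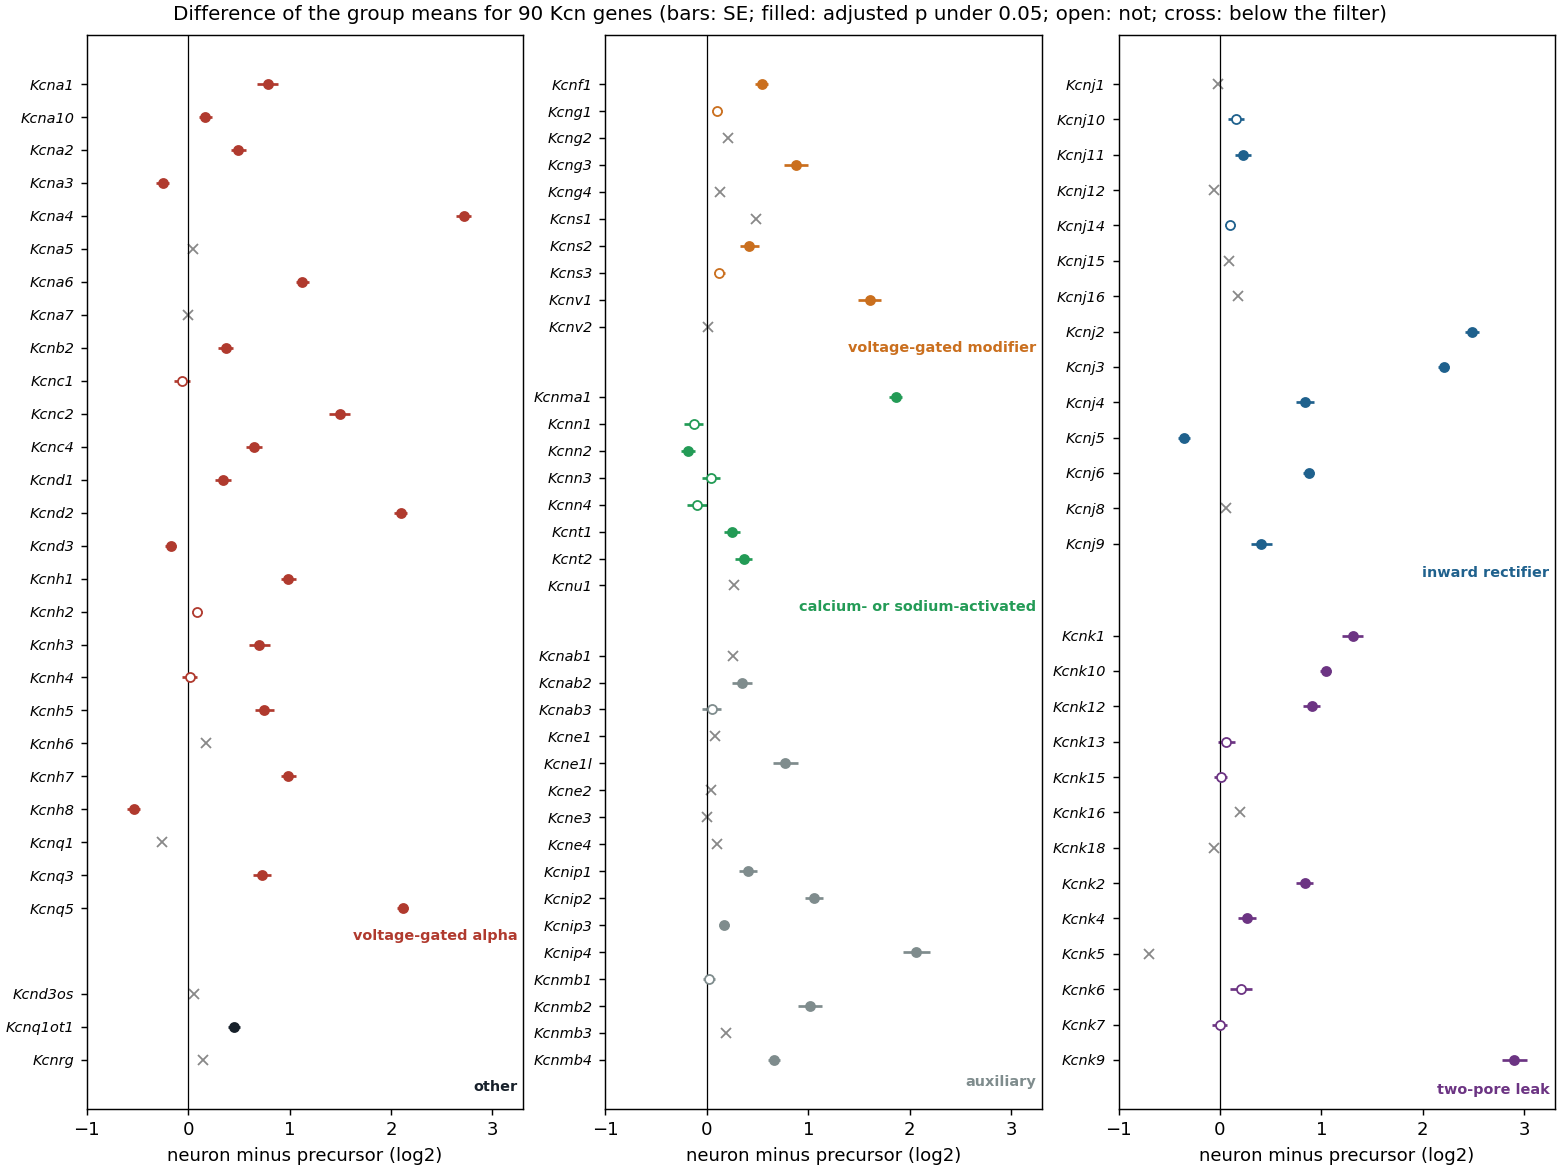
Difference of the group means, neuron minus precursor (log2, horizontal axis), for each of the 90 Kcn genes, grouped by channel class. Filled points passed the test, open points did not, bars are standard errors and crosses are genes below the filter; differences reach 2.90 to the right (Kcnk9) and -0.70 to the left (Kcnk5).

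The plot of differences by class shows rises of over 2-fold among voltage-gated, modifier, calcium-activated, inward rectifier, leak and auxiliary genes alike. Among the 26 voltage-gated alpha subunits, which form the pore of voltage-gated channels, 22 were tested, 16 rose and 3 fell. Of 10 modifier subunits, which are silent alone and change other voltage-gated channels, 6 were tested and 4 rose. Of 8 calcium- or sodium-activated channels 7 were tested, with 3 higher and 1 lower. Of 14 inward rectifiers 9 were tested, with 6 higher and 1 lower. Of 13 two-pore leak channels 10 were tested and 6 rose. Of 16 auxiliary subunits 10 were tested and 8 rose. Outside these classes were 3 genes, Kcnd3os, Kcnrg and the non-coding RNA Kcnq1ot1, of which only Kcnq1ot1 was tested, and it rose. Of all tested genes, 28% rose and 35.2% fell, and the counts of a class are small beside these shares. The medians over all genes of a class, tested or not, were 0.43 for voltage-gated alpha subunits, 0.31 for modifiers, 0.14 for calcium- or sodium-activated channels, 0.17 for inward rectifiers, 0.21 for leak channels and 0.22 for auxiliary subunits, on the log2 scale.

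Shaker-type genes (Kv1) encode delayed and A-type currents of axons. Kcna4 was at 8.89, 8.99 and 9.11 in the 3 neuron arrays, at 6.30, 6.41 and 6.14 in precursors and at 7.62, 7.64 and 7.66 in the co-culture. The groups did not overlap, and the neurons stood 2.72 above precursors (SE 0.077, adjusted p = 3.43e-09, limma). These values come from 1 of 2 Kcna4 probe sets, and the other was lower in neurons than in precursors (-0.59). Kcna6, a delayed rectifier of the same subfamily, was at 7.95, 7.80 and 8.05 in neurons and 6.82, 6.88 and 6.73 in precursors, or 2.18-fold higher in neurons (adjusted p = 3.29e-07). The axonal channel genes Kcna1 and Kcna2 were higher by 0.78 and 0.50. Kcna10 was higher by 0.17 (adjusted p = 0.0424), but its groups overlapped and the call was lost under 11 of 17 alternatives. Kcna3, well known from T cells, ran the other way and is described with the genes that fell.

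Genes of the A-type Kv4 channels and of the KChIP proteins that bind them moved unevenly. Kcnd2 was at 10.71, 10.69 and 10.64 in neurons, 8.58, 8.66 and 8.51 in precursors and 9.57, 9.56 and 9.40 in the co-culture. The neuron values lay above every other array, and the difference was 2.09 (SE 0.061, adjusted p = 3.83e-09), or 4.27-fold. The other Kv4 genes stayed close, with Kcnd1 0.35 higher in neurons and Kcnd3 0.17 lower. All 4 KChIP genes were higher in neurons. Kcnip4 was at 8.71, 9.15 and 9.05 in neurons, 6.78, 7.09 and 6.85 in precursors and 7.40, 7.75 and 7.64 in the co-culture, with no overlap between groups and a 4.18-fold difference between neurons and precursors (adjusted p = 5.42e-07). Kcnip2 was 2.08-fold higher (adjusted p = 4.36e-06), Kcnip1 1.33-fold and Kcnip3 1.12-fold, the last without its call when neuron replicate 3 was left out (adjusted p = 0.0565).

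The KCNQ (Kv7) genes encode the M current, which restrains repetitive firing and is shut by muscarinic receptors. Kcnq5 was at 10.15, 10.07 and 10.24 in neurons, 8.05, 8.09 and 7.98 in precursors and 8.77, 8.84 and 8.84 in the co-culture. The 3 groups stood apart, with the co-culture in between, and neurons lay 2.12 above precursors (SE 0.056, adjusted p = 2.22e-09). Kcnq3, which forms heteromeric M channels, was at 8.58, 8.92 and 8.91 in neurons and 7.99, 8.12 and 8.13 in precursors, so that neurons were 1.66-fold higher (adjusted p = 4.95e-05). Kcnq1ot1, a long non-coding RNA read from the opposite strand of Kcnq1, was 0.45 higher in neurons, while Kcnq1 itself lay below the filter.

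Among Shaw-type (Kv3) genes, whose channels allow fast firing, Kcnc2 was at 7.62, 7.76 and 7.44 in neurons and at 6.09, 5.94 and 6.31 in precursors. The difference of 1.49 (SE 0.1, adjusted p = 7.73e-07) had no overlap between groups, though the precursor values lay below the array median. Kcnc4 was 0.65 higher in neurons, and Kcnc1 differed by -0.06 (adjusted p = 0.555). Kcnb2, a Shab-type (Kv2) delayed rectifier, was 0.37 higher.

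In the EAG, ERG and ELK subfamily, slow voltage-gated channels encoded by Kcnh genes, 4 of 7 tested genes rose and 1 fell. The ERG gene Kcnh7 and the EAG gene Kcnh1 were each 1.98-fold higher in neurons (adjusted p = 1.99e-06 and 2.14e-06). Kcnh5 and Kcnh3 were 0.75 and 0.70 higher. Kcnh2, the ERG channel of the heart, differed by 0.09 (adjusted p = 0.135), with all neuron arrays above all precursor arrays, and Kcnh4 by 0.01 (adjusted p = 0.886).

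Of the modifier subunits, Kcnv1 had the largest difference. It was at 9.01, 8.65 and 8.84 in neurons, at 7.42, 7.02 and 7.26 in precursors and at 7.86, 7.86 and 7.67 in the co-culture, and neurons were 3.04-fold above precursors (adjusted p = 1.21e-06). None of the 3 groups overlapped. Kcng3 was 0.88 higher in neurons, Kcnf1 0.54 and Kcns2 0.42. Kcng1 differed by 0.10 (adjusted p = 0.105) and Kcns3 by 0.12 (adjusted p = 0.0791).

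The inward rectifiers include the G-protein-gated (GIRK) channels that GABA-B receptors open. Kcnj3, a GIRK subunit, was at 9.99, 9.90 and 9.89 in neurons, 7.78, 7.69 and 7.68 in precursors and 8.76, 8.78 and 8.65 in the co-culture. The groups stood apart, and neurons were 4.62-fold above precursors (SE 0.054 on the log2 scale, adjusted p = 1.78e-09). Its partner Kcnj6 was 0.88 higher (adjusted p = 5.51e-07) and Kcnj9 0.41 higher, while the fourth GIRK gene, Kcnj5, was lower in neurons. Kcnj2 was at 8.98, 9.13 and 8.87 in neurons and 6.59, 6.53 and 6.40 in precursors, and the 3 co-culture arrays held the same value, 7.47. Neurons and precursors did not overlap, with a 5.60-fold difference (adjusted p = 3.60e-09). Kcnj4, another strong inward rectifier, was 0.84 higher. Kcnj11, the pore of the ATP-sensitive channel, was 0.23 higher with overlapping groups (adjusted p = 0.0277), a call lost under 5 of 17 alternatives. Kcnj10, best known from glia, differed by 0.16 (adjusted p = 0.111), and Kcnj14 by 0.10 (adjusted p = 0.112).

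Two-pore channels carry the leak current that holds the resting potential. Kcnk9, an acid-sensitive leak channel of the TASK type, was at 10.06, 10.00 and 10.08 in neurons and 7.04, 6.90 and 7.49 in precursors, and all 3 co-culture arrays held 8.40. Precursor replicate 3 lay highest of its group, yet no groups overlapped, and the difference was 2.90 (SE 0.12, adjusted p = 3.36e-08). Kcnk1, a weak leak channel of the TWIK type, was 2.48-fold higher in neurons, at 8.78, 8.87 and 8.97 against 7.78, 7.54 and 7.37. Kcnk10 and Kcnk2, mechanosensitive channels of the TREK type, were higher by 1.04 and 0.84, and Kcnk12 by 0.90. Kcnk4, of the related TRAAK type, was 0.27 higher and lost its call under 3 of 17 alternatives. The remaining tested leak channels, Kcnk6, Kcnk7, Kcnk13 and Kcnk15, did not pass, with differences of 0.21, 0.00, 0.06 and 0.01.

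The BK channel opens on calcium and voltage together, and its gene Kcnma1 was at 10.32, 10.44 and 10.48 in neurons, 8.44, 8.54 and 8.66 in precursors and 9.16, 9.17 and 9.15 in the co-culture. Neurons were 3.64-fold above precursors with no overlap (adjusted p = 9.21e-09), but a second Kcnma1 probe set ran the other way (-0.56, groups overlapping). Of the BK beta subunits, Kcnmb2, which makes the channel inactivate, was 2.03-fold higher. Kcnmb4, the beta subunit known from neurons, was 1.58-fold higher, while Kcnmb1, known from smooth muscle, differed by 0.02 (adjusted p = 0.811). The sodium-activated channels Kcnt2 and Kcnt1 were 0.36 and 0.25 higher. The call of Kcnt1 was lost without neuron replicate 3 (0.17, adjusted p = 0.0697) or precursor replicate 1 or 3. Of the 4 genes of small- and intermediate-conductance calcium-activated channels, 0 rose, Kcnn2 fell, and Kcnn1, Kcnn3 and Kcnn4 differed by -0.13, 0.04 and -0.10 without passing. Of the remaining auxiliary subunits, the MinK-related Kcne1l was 0.77 higher and the beta subunit Kcnab2 0.34 higher, the latter without its call when precursor replicate 2 was left out (adjusted p = 0.0506), and Kcnab3 did not pass (0.05, adjusted p = 0.68).

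**Figure D2:**
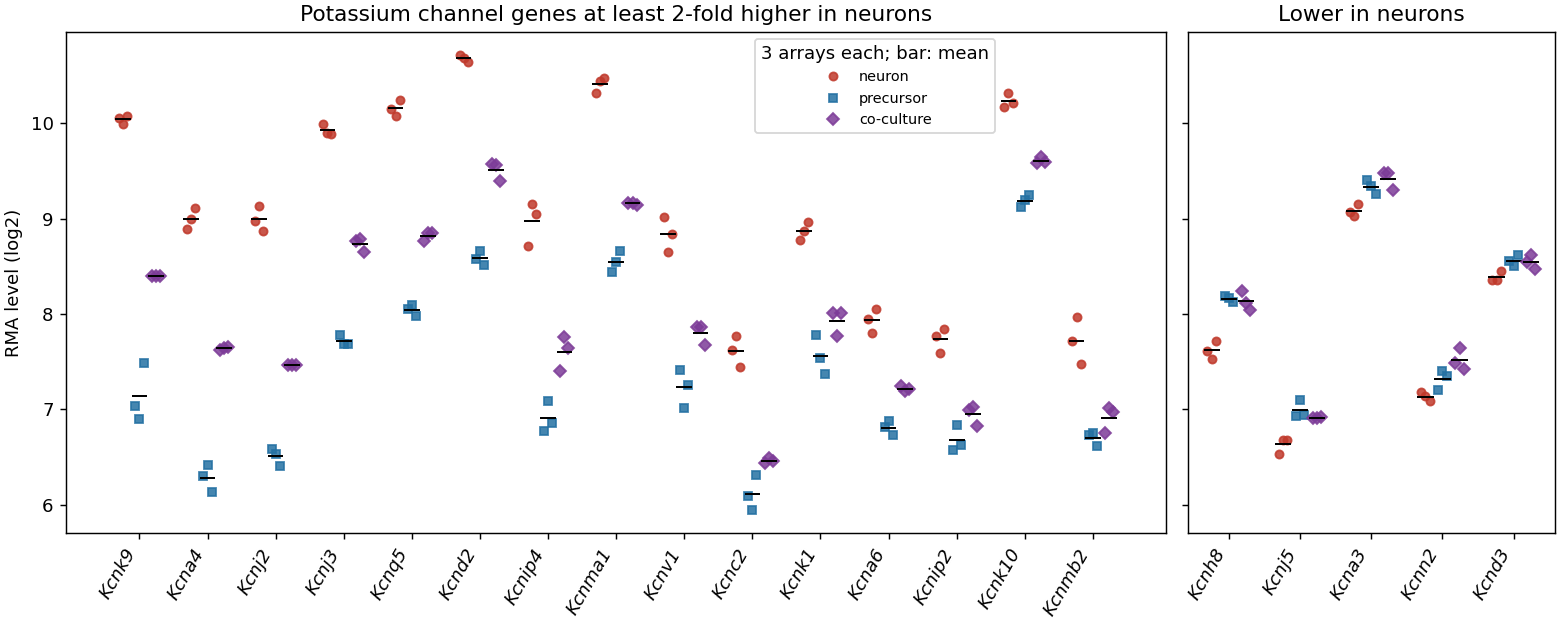
Log2 level (vertical axis) in each of the 9 arrays for 15 genes that neurons held at least 2-fold higher and the 5 that they held lower, with bars at the group means. The co-culture arrays of the 15 genes lie below all neuron arrays. Those of the 5 genes lie above all neuron arrays, near the precursors except in Kcnn2, where they lie above all precursor arrays too.

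The 5 genes lower in neurons differed by less than 2-fold, as the plot of levels by array shows. Kcnh8 was at 7.61, 7.53 and 7.72 in neurons, 8.19, 8.16 and 8.13 in precursors and 8.24, 8.12 and 8.04 in the co-culture. Precursors and co-culture overlapped and neurons lay below both, by 0.54 against precursors (SE 0.064, adjusted p = 4.78e-05). Kcnj5 was at 6.53, 6.68 and 6.68 in neurons, below the array median, and at 6.93, 7.10 and 6.94 in precursors, a fall by 0.36 (adjusted p = 0.000516). Kcna3 fell by 0.25 (adjusted p = 0.00721), Kcnn2, a small-conductance calcium-activated channel, by 0.19 (adjusted p = 0.0413) and Kcnd3 by 0.17 (adjusted p = 0.0209), none with overlapping groups. The falls of Kcnh8 and Kcnj5 passed under every alternative tried. That of Kcna3 was lost with cyclic loess normalization (adjusted p = 0.0611), that of Kcnd3 under 4 of 18 alternatives and that of Kcnn2 under 10 of 17. When replicate 1 or 2 of the neurons or replicate 3 of the precursors was left out, 3 genes were lower instead of 5.

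The 25 genes below the filter were examined in the fit with no filter, where their differences between neurons and precursors ran from -0.70 to 0.48. Kcnk5, an acid-sensitive leak channel, was lower in neurons, at a mean of 5.94 against 6.64 in precursors (adjusted p = 0.000525). Kcnab1, Kcnu1 and Kcnmb3 were higher by 0.26, 0.27 and 0.19 (adjusted p = 0.0211, 0.0192 and 0.0276). The rest did not pass, among them Kcns1 with the difference of 0.48 (adjusted p = 0.0753). Nearest to the filter on the inside, with 3 arrays above the median, were Kcnc2, Kcng3 and Kcnk7, and on the outside, with 1 array, Kcnd3os, Kcne4, Kcnk18 and Kcns1. All these levels lie at the dim end of the scale, where folds are understated.

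For 7 of the 90 genes the array had 2 named probe sets, and for 2 of these the probe sets ran in opposite directions. The Kcna4 probe set that was not used was at 6.77, 7.07 and 6.96 in neurons, 7.26, 7.56 and 7.75 in precursors and 7.58, 7.78 and 7.50 in the co-culture, so it fell where the other rose by 2.72. Its neuron mean was 0.59 below the precursor mean, with no overlap. The second Kcnma1 probe set was at 6.33, 5.97 and 6.25 in neurons and 7.23, 6.21 and 6.78 in precursors, with overlapping groups and a difference of -0.56 against 1.86 for the one used. Which part of either transcript each probe set reads was not analysed here. For Kcna6, Kcnj3, Kcnq5 and Kcnmb4 the probe sets differed in size and not in direction, at 1.12 and 0.29, 2.21 and 0.64, 2.12 and 0.97, and 0.66 and 0.34. For Kcnab3 both were near 0.

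**Figure D3:**
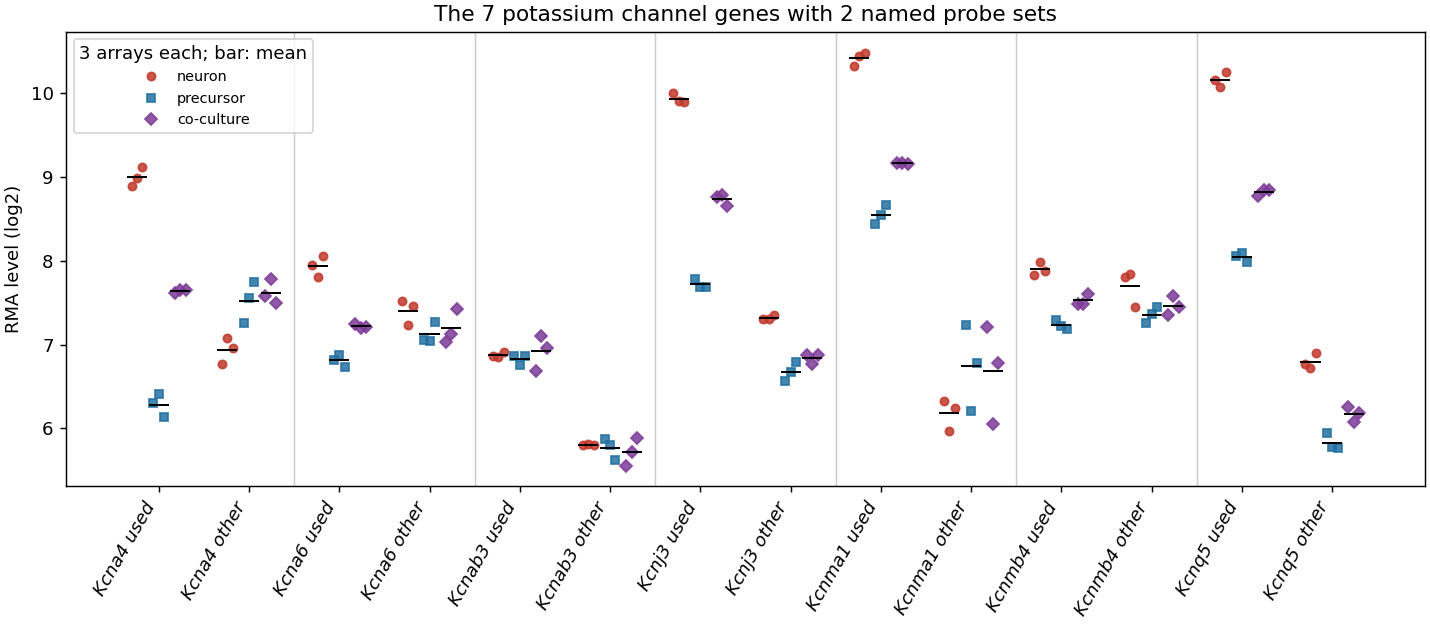
Log2 level (vertical axis) in each of the 9 arrays for both probe sets of the 7 genes that have 2, with bars at the group means; "used" is the one with the higher mean. In Kcna4 and Kcnma1 the neuron arrays lie above the precursor arrays in the used probe set and have the lower mean in the other.

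The co-culture was set against precursors alone to see which of these genes are higher once neurons share the dish. Of the 65 tested genes, 18 were higher and 0 lower (limma, adjusted p under 0.05), where 8.22% of all tested genes were higher and 0.2% lower. At an unadjusted p under 0.05 the counts were 27 and 0, for which no share of all tested genes is given here. The median difference was 0.14 over the 65 genes and 0.02 over all tested genes. With no filter, 15 of the 90 genes were higher, against 3.53% of all genes, and 0 lower, against 0.18%. All 18 were among the 44 genes higher in neurons, a comparison that shares the precursor arrays. At least 2-fold higher were 3 genes, against 0.407% of all tested genes: Kcna4 at 2.56-fold (difference 1.36, SE 0.077, adjusted p = 5.36e-06), Kcnk9 at 2.39-fold (1.26, SE 0.12, adjusted p = 0.000175) and Kcnj3 at 2.02-fold (1.02, SE 0.054, adjusted p = 4.22e-06). Kcnj2 (0.96), Kcnd2 (0.92), Kcnq5 (0.78), Kcnip4 (0.69), Kcnma1 (0.61) and Kcnv1 (0.57) followed. The other 9 were Kcnk10 (0.42), Kcna6 (0.41), Kcnq3 (0.40), Kcnh7 (0.37), Kcnk12 (0.33), Kcnh1 (0.32), Kcnmb4 (0.29), Kcnj6 (0.26) and Kcnf1 (0.24). By its second probe set, Kcna4 was at a mean of 7.62 in the co-culture and 7.52 in precursors. The co-culture arrays lay above all precursor arrays for 24 of the 65 genes, these 18 among them, and below them for 2, Kcnj5 and Kcns3, against 19.4% and 5.4% of all tested genes.

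By class, the 18 were 7 voltage-gated alpha subunits, 2 modifiers, 1 calcium-activated channel, 3 inward rectifiers, 3 leak channels and 2 auxiliary subunits. The calls of 8 of them, Kcna4, Kcnk9, Kcnj3, Kcnj2, Kcnd2, Kcnq5, Kcnip4 and Kcnk10, passed under every alternative. The other 10 were lost under 1 or more, and without co-culture replicate 2 or replicate 3 the count was 12. With the mean of both probe sets in place of one the count was 15, and 3 of the genes with 2 probe sets did not pass: Kcnma1 (0.28 higher, adjusted p = 0.421), Kcna6 (0.24, adjusted p = 0.0862) and Kcnmb4 (0.20, adjusted p = 0.113). With the replicate number as a block, Kcnh1 no longer passed (adjusted p = 0.0515) and Kcnj4 did (0.33 higher, adjusted p = 0.0269). The 3 co-culture arrays held an identical value for Kcnj2 and for Kcnk9, so the spread there is understated. All 3 groups share 1 estimate of the spread, so this also affects the standard errors and p-values of both genes in the comparisons with neurons.

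Against neurons alone, the co-culture was lower for 41 of the 65 genes and higher for 5 (limma), where 24.9% and 35.7% of all tested genes were lower and higher. At least 2-fold lower were 10 genes, against 2.28% of all tested genes, led by Kcnk9, which fell by 1.64 from neurons to co-culture (adjusted p = 2.50e-06), and Kcnj2, which fell by 1.52 (adjusted p = 1.36e-07). With no filter, 41 of the 90 were lower and 5 higher, against 16.7% and 20.3% of all genes. The 5 genes higher in the co-culture than in neurons, Kcnh8 (0.51), Kcnn2 (0.38), Kcna3 (0.33), Kcnj5 (0.28) and Kcnd3 (0.16), were also the 5 lower in neurons than in precursors, and both comparisons use the neuron arrays. The Kcnd3 call was lost under 7 of 18 alternatives, with a difference of 0.09 and an adjusted p of 0.164 with cyclic loess. Kcnn2 lay above precursors as well, at 7.49, 7.64 and 7.43 in the co-culture against 7.20, 7.41 and 7.35. These groups did not overlap, but the difference of 0.20 did not pass (adjusted p = 0.154).

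Because the co-culture RNA is a mixture, its levels were also set against those that mixing the RNA of both separate cultures would give. The neuron share of the mixture was taken as 16.56% ± 1.06 (SD, n = 3) from genes at least 4-fold different between neurons and precursors, leaving out the Kcn genes. It was 22.58% by the 98 such genes higher in neurons and 10.54% by the 109 higher in precursors. At 16.56%, 2 of the 65 potassium channel genes lay above the mixed level and 0 below (limma, adjusted p under 0.05), where 0.361% of all tested genes lay above and 0.0307% below. At an unadjusted p under 0.05 the counts were 12 and 0, for which no share of all tested genes is given here. The median departure was 0.05 over the 65 genes and 0.03 over all tested genes. Kcna4 lay 0.41 above it (SE 0.066, adjusted p = 0.0397), Kcnj3 0.34 (SE 0.047, adjusted p = 0.0256), and Kcnd2 0.30 without passing (adjusted p = 0.0563). All 3 co-culture arrays of each of these genes lay above the mixed level. For Kcna4 this describes the used probe set, and the second one, which ran the other way between neurons and precursors, was not tested by itself.

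**Figure D4:**
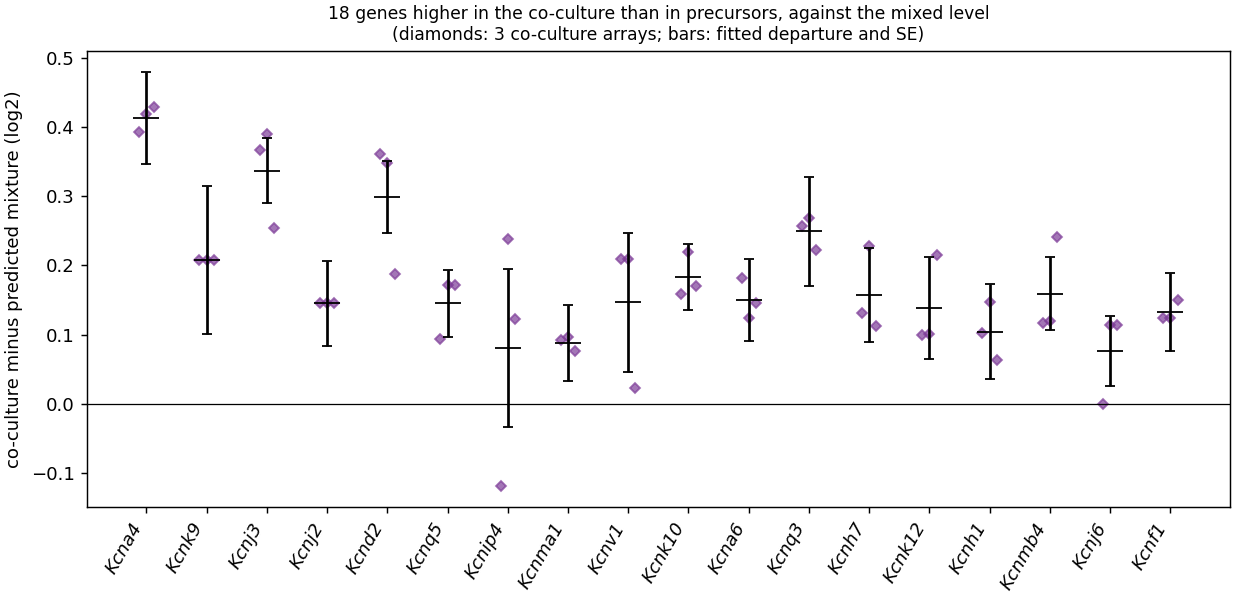
Co-culture level minus the level predicted by mixing neuron and precursor RNA (log2, vertical axis) for the 18 genes higher in the co-culture than in precursors, at a neuron share of 16.56%. Diamonds are the 3 co-culture arrays, bars the fitted departure with its standard error; Kcna4 (0.41), Kcnj3 (0.34) and Kcnd2 (0.30) stand highest, and the error of the share is not included.

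The departures in the plot rest on the share. At 22.58%, 0 genes lay above the mixed level, with Kcna4 at 0.18 (adjusted p = 0.51) and Kcnj3 at 0.15 (adjusted p = 0.461). At 10.54%, 8 genes did. Genes not named Kcn passed there too, among them Lgi1, Dlg2, Dpp10 and Gabbr2, described below. A lower share lowers the predicted level of every gene higher in neurons. The share of all tested genes above the mixed level at 10.54% is not given here. The share that each gene would need by itself ran from 14.9% to 31.6% over the 15 genes with a rise of at least 2-fold in neurons, with a median of 21.5%. It was 28.0% for Kcna4, 28.2% for Kcnj3, 27.4% for Kcnd2 and 31.6% for Kcnk10, and 14.9% for Kcnc2 and 15.3% for Kcnmb2. With no filter the count was 0 of the 90 genes, against 0.0857% of all genes, and with the replicate block Kcna4 had an adjusted p of 0.0891 and Kcnd2 of 0.0492. Leaving out neuron replicate 2, precursor replicate 2, or co-culture replicate 1 or 2 left 0 genes, and leaving out neuron replicate 1 or 3, precursor replicate 1 or co-culture replicate 3 left 1.

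The proteins that anchor or modulate potassium channels were read from a list of 37 genes not named Kcn, of which 32 had a named probe set and 29 were tested. The list was chosen with earlier results of these data known, so its counts are descriptions and no test of the list. Of the 29, 24 were higher in neurons, 3 lower and 2, Vapa and Vapb, did not pass, against 28% of all tested genes higher and 35.2% lower. The median difference was 0.72, against -0.02 over all tested genes. Gabbr2, the GABA-B receptor subunit that couples to GIRK channels, was at 11.02, 10.98 and 10.99 in neurons, 8.46, 8.34 and 8.41 in precursors and 9.42, 9.44 and 9.39 in the co-culture. The groups stood apart, and neurons were 2.60 above precursors (adjusted p = 4.86e-10, limma). Among proteins of axonal Kv1 complexes, the secreted Lgi1 (2.46), the scaffold Dlg2 (2.31), its relative Dlg4 (0.72), the Lgi1 receptor Adam22 (0.94) and the adhesion protein Cntnap2 (1.13) were higher in neurons. The scaffold Dlg1 fell by 0.43, the linker Epb41l3 by 0.33 and the adhesion protein Cntn2 by 0.23. The Kv4 subunits Dpp10 and Dpp6 were higher by 1.90 and 1.38, and the BK gamma subunit Lrrc55 by 1.28. The pacemaker channel gene Hcn2 was 1.47 higher and the sulfonylurea receptor Abcc8, which pairs with the Kcnj11 pore, 0.45 higher.

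In the co-culture, 13 of the 29 partner genes were above precursors and 0 below, against 8.22% and 0.2% of all tested genes, with Lgi1 at 1.07, Gabbr2 at 1.02, Dlg2 at 0.89 and Dpp10 at 0.70. The calls of Cntn2, Sptbn4, Gabbr1 and Gng2 were lost when single arrays were left out, and that of Gng2 also with no filter and with the replicate block. Cntn2 was 0.24 above precursors there (adjusted p = 0.0191), a call lost when any 1 precursor or co-culture array was left out (adjusted p = 0.0528 to 0.0915). Its fall in neurons was lost with cyclic loess (adjusted p = 0.052). Its 3 co-culture arrays, at 9.58, 9.65 and 9.60, lay above all neuron arrays (9.11, 9.05 and 9.23) and all precursor arrays (9.36, 9.37 and 9.36).

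Several Kcn genes lie next to each other on a chromosome, with 0 protein-coding genes between them in the RefSeq table, and their differences between neurons and precursors are given side by side. Next to Kcnj2, with a difference of 2.49, lies Kcnj16, at 0.18 and below the filter. Kcna3 (-0.25) and Kcna10 (0.17) both adjoin Kcna2 (0.50). Kcna1 (0.78) lies between Kcna6 (1.12) and Kcna5 (0.05, below the filter). Kcnj9 (0.41) adjoins Kcnj10 (0.16), and Kcnip1 (0.41) adjoins Kcnmb1 (0.02).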

How the data were processed

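Total RNA (100 ng, whole-transcript kit, per the labels' protocols) was measured on 9 arrays. Per the submitters' processing notes, the authors used RMA and the oligo package, and their deposited table gives 1 log2 value for each probe set and array. RMA equalizes the arrays' distributions, so a shift of all genes cannot be seen; array medians were 6.75 to 6.79. Of 41345 probe sets, 23521 had 1 gene symbol. One model of 3 groups was fitted over 13012 genes with limma 3.58.1 (R 4.3.3; lmFit, eBayes, two-sided, Benjamini-Hochberg, threshold 0.05) and tested on simulated data. Arrays have no read depth, so 3 arrays a group limit the precision. In 13 of the 65 tested potassium channel genes 2 or more arrays of a group held the same value (20%; 18% of all tested genes). Alternatives changed the filter, normalization, probe set, weights, variance prior, neuron share and arrays used. Genes were named by size of change with groups that do not overlap, by level, by disagreeing probe sets and to complete each subfamily. Which genes are members and which lists were used was chosen with earlier results of these data known. Promoter sequences and gene order are from RefSeq, assembly GRCm38.p6; no coordinates come from the array. Columns left unused numbered 0. Around their group means, precursor and co-culture arrays of 1 number correlated across genes at 0.345, 0.3 and 0.161. For neurons and the co-culture the values were -0.00511, 0.268 and 0.17, and for neurons and precursors 0.00431, 0.134 and -0.148. The labels do not say what the replicate numbers pair, so the block served as an alternative only.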

Additional observations from a re-analysis of the deposited data

How the results depend on the processing

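No call of a potassium channel gene changed direction under any alternative. The alternatives included the mean of both probe sets of a gene, but not the unused probe set alone. For Kcna4 and Kcnma1 the unused one differed between neurons and precursors by -0.59 and -0.56, against the direction of the calls. Of the calls for neurons against precursors, 38 of 44 higher and 2 of 5 lower genes passed under every alternative, and of those for the co-culture against precursors 8 of 18. Against neurons, 35 of 41 lower and 4 of 5 higher genes did, and against the mixed level 0 of 2. A filter at the 75th percentile tested only 24 of the genes. Neurons held 21 of them higher and 2 lower against precursors, and the co-culture held 2 higher and 19 lower against neurons. The shares of all genes under this filter are not given here, so these counts are not set against them. Cyclic loess left 2 genes lower in neurons than in precursors. Above the mixed level lay 0 genes with no filter, 0 at the share from genes higher in neurons and 8 at the share from genes higher in precursors. At the last share, partner genes such as Lgi1 and Gabbr2 passed too. Leaving out 1 array at a time gave 39 to 46 genes higher and 3 to 5 lower for neurons against precursors, 12 to 18 higher in the co-culture than in precursors, 4 to 5 higher and 36 to 43 lower in the co-culture than in neurons, and 0 to 3 above the mixed level. With the replicate number as a block the counts were 45 and 5, 18 and 0, 4 and 44, and 2 and 0 in the same order. The block, whose pairing the labels do not give, also ended the call of Kcnd3 for co-culture against neurons (adjusted p = 0.0503). It added Kcnab2, Kcnt2 and Kcnk6 there and Kcnk6 for neurons against precursors. No detection calls were used, and folds of dim genes are understated.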
